A study of Homo sapiens with 12 samples.

Results

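ABCA1, which encodes the membrane pump that hands cellular cholesterol and phospholipid to apolipoprotein A-I, was followed together with a set of genes tied to cholesterol efflux and to the liver X receptors (LXR). The 9 genes were chosen by name: ABCA1, ABCG1, MYLIP, NR1H2, NR1H3, LPCAT3, APOE, NPC1 and NPC2. Of these, 8 were measured, each by a single transcript cluster (the probe group that represents a gene on the array), among 18417 genes in all, and NR1H2 was not analysed here. ABCA1 entered the set for its rise in siWDR5, so every comparison of siWDR5 with its control is given for these 8 genes as a description without a test.

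The cells were NCCIT, a human embryonal carcinoma line with features of pluripotent cells, and 250 ng of their RNA went onto each of 12 Affymetrix Human Gene ST arrays. There were 2 arrays for each of 6 siRNA conditions, and all of them, the control included, were transfected. siWDR5 targeted WDR5, a core subunit of the MLL/COMPASS complexes that deposit the promoter mark H3K4me3. siEED targeted EED, which Polycomb repressive complex 2 (PRC2) needs to methylate histone H3 at its Polycomb mark H3K27me3, and siRNF2 targeted RNF2, the ubiquitin ligase of Polycomb repressive complex 1 (PRC1). The dual condition siEED+RNF2 received both pools and, by the methods, more siRNA and more transfection reagent than the single knockdowns. siSETD2 targeted SETD2, the enzyme that deposits H3K36me3 in transcribed genes, and is not described in the study's methods, and siNTC was a non-targeting siRNA whose arrays are labelled as a re-analysis. Whether those 2 arrays were run together with the others is not stated, so a difference in how they were run and the effect of a knockdown against siNTC cannot be told apart. Every change against siNTC rests on these 2 arrays. Each siRNA pool was used at a single amount and time in this single line, so amount, time and line cannot be separated from the effect of a pool. Neither labels nor methods say whether replicate arrays came from separate cultures. The p-values therefore measure only how far these arrays scatter, which may be technical.

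The deposited values are on the log2 scale, where a difference of 1 is a doubling of signal and the array medians were 6.29 to 6.36. Across all clusters the correlation between replicates was 0.996 to 0.997. The targeted transcripts were lower in their own knockdowns, by log2 fold changes of -1.21 for WDR5 in siWDR5, -1.29 and -1.61 for EED in siEED and siEED+RNF2, and -1.75 for SETD2 in siSETD2. EED was also called lower in siRNF2 (-0.66, limma adjusted p = 5.4e-05) and lay at -0.54 in siWDR5 and -0.42 in siSETD2. RNF2 itself was not analysed here. The 5 measured pluripotency markers lay between 10.6 and 12.8 on all arrays but were not even across conditions. The pluripotency factors POU5F1 and NANOG were listed too but not analysed here. Against siNTC, SOX2 lay between -0.25 and 0.06 on the log2 scale, whereas LIN28A was at -0.68 in siWDR5, DNMT3B between -0.34 and -0.71 in siWDR5 and the Polycomb knockdowns and 0.24 in siSETD2, and DPPA4 at 0.59 in siSETD2. Markers of macrophages and blood cells, in which cholesterol efflux is best known, averaged 4.80 to 4.98 per array over 7 genes, and 4 hepatocyte markers averaged 4.58 to 4.82. These averages lie below the array medians, and the leukocyte antigen PTPRC did not exceed 4.38 and albumin (ALB) did not exceed 4.57 on any array. The exception was CD68, a lysosomal protein used as a macrophage marker, which ran from 6.70 to 7.41 and was lower in every knockdown than in siNTC, with log2 differences of -0.29 in siWDR5 to -0.60 in siSETD2. The part of these markers in the results was not tested.

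LXRs are nuclear receptors that bind oxysterols and, paired with a retinoid X receptor (RXR), switch on genes that remove cholesterol from the cell. Their classical targets include the pumps ABCA1 and ABCG1, the carrier protein APOE, the ubiquitin ligase IDOL (from MYLIP), which sends lipoprotein receptors to degradation, and LPCAT3, which remodels membrane phospholipids. NPC2 and NPC1 act upstream by passing cholesterol out of the lysosome. LXR and RXR bind pairs of direct repeats separated by 4 bases, a DR4 element, and the ABCA1 promoter is a textbook case of such an element. RXR and LXR without ligand can also hold targets down through corepressors.

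The promoter of ABCA1 is shown because it carries the closest DR4 match of the set. It spans chr9:104928106-104928405 on the minus strand of GRCh38.p14 in RefSeq and runs from 250 bases before to 50 bases after the annotated start. The sequence below reads 5′ to 3′ on the gene's strand, and its capitals mark an E-box, CACGTG, at -147 and the DR4-like stretch at -69 to -54.
ABCA1 promoter: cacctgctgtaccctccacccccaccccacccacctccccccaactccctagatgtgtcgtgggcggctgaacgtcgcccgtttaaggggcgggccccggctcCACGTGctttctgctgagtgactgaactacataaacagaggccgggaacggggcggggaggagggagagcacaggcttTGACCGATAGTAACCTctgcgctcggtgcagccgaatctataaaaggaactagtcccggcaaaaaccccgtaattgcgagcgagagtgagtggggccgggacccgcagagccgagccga
This window of 300 bases was 62.7% G and C and held 23 CpG dinucleotides and 3 copies of the GC box GGGCGG, counted on both strands.

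All 35116 RefSeq promoter windows of the same length were searched on both strands for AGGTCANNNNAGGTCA. The ABCA1 window matched 10 of the 12 fixed letters, and 2.34% of all windows matched that well or better. NPC2 matched with 3 mismatches, a level reached by 18.6% of windows, and MYLIP, NR1H3, LPCAT3 and APOE matched with 4, a level reached by 72.5% of windows. NPC1 had 5 mismatches, and 7 of the 8 measured genes had a promoter window. The E-box stood in the ABCA1 window and in no window of the other 6 genes, against 7.26% of all windows. The closest stretches of the efflux pump, of the next best gene and of 2 further LXR targets are set side by side here, 5′ to 3′ on the matching strand, with capitals for the letters that match the motif.
ABCA1: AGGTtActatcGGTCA
NPC2: gGGTCcgggcgGGTCA
MYLIP: cGGcCAgggaAacTCA
APOE: tGGTCAaaagAccTCt
The ABCA1 stretch lies on the strand opposite to the gene and is therefore the reverse complement of the second capital block above. The NPC2 stretch is from chr14:74493256-74493555 (minus strand), the MYLIP stretch from chr6:16128836-16129135 (plus strand) and the APOE stretch from chr19:44905546-44905845 (plus strand). These are letter matches in a short window and say nothing about binding.

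ABCA1 was higher in every knockdown than in siNTC. Its log2 signal was 6.29 and 6.43 in siNTC. It was 8.24 and 8.15 in siWDR5, 8.40 and 8.47 in siEED, 8.33 and 8.27 in siRNF2, 8.30 and 8.20 in siEED+RNF2, and 7.66 and 7.82 in siSETD2. The lowest knockdown array lay above the higher siNTC array, and the siSETD2 arrays lay between siNTC and all others. On the log2 scale the change in siWDR5, which chose the gene, was 1.83 (standard error 0.08), or 3.56-fold, the 10th highest of 18417 genes. ABCA1 rose by 2.07 in siEED, or 4.21-fold (limma over all genes, adjusted p = 1.1e-08). It rose by 1.94 in siRNF2 (limma adjusted p = 9.6e-09) and by 1.89 in siEED+RNF2 (limma adjusted p = 1.1e-08). In siSETD2 it rose by 1.38, or 2.59-fold (limma adjusted p = 3.0e-07). Each of these changes has the same standard error of 0.08, and each is measured against the same 2 siNTC arrays that chose ABCA1, so they are not independent of that choice or of each other. Of all 18417 genes, 82 were called higher in all 5 knockdowns and 86 lower, in comparisons that share the siNTC arrays. ABCA1 is among the 82, but its rise in siWDR5 chose it, so its place there is no test. ABCA1 ranked 19th, 39th, 34th and 25th highest among all genes in the 4 comparisons. As another reference in place of siNTC, the mean of the knockdowns that share no siRNA pool with the condition compared was taken. That set siEED+RNF2 against siWDR5 and siSETD2 only, and left siEED+RNF2 out of the reference for siEED and siRNF2. ABCA1 was then called higher in no knockdown. Its differences were then 0.01 in siWDR5 (without a test), 0.36 in siEED, 0.28 in siEED+RNF2, 0.18 in siRNF2 and -0.56 in siSETD2 on the log2 scale, so the rise is measured by siNTC alone. In bulk RNA, fewer expressing cells and less RNA per cell cannot be told apart.

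**Figure D1:**
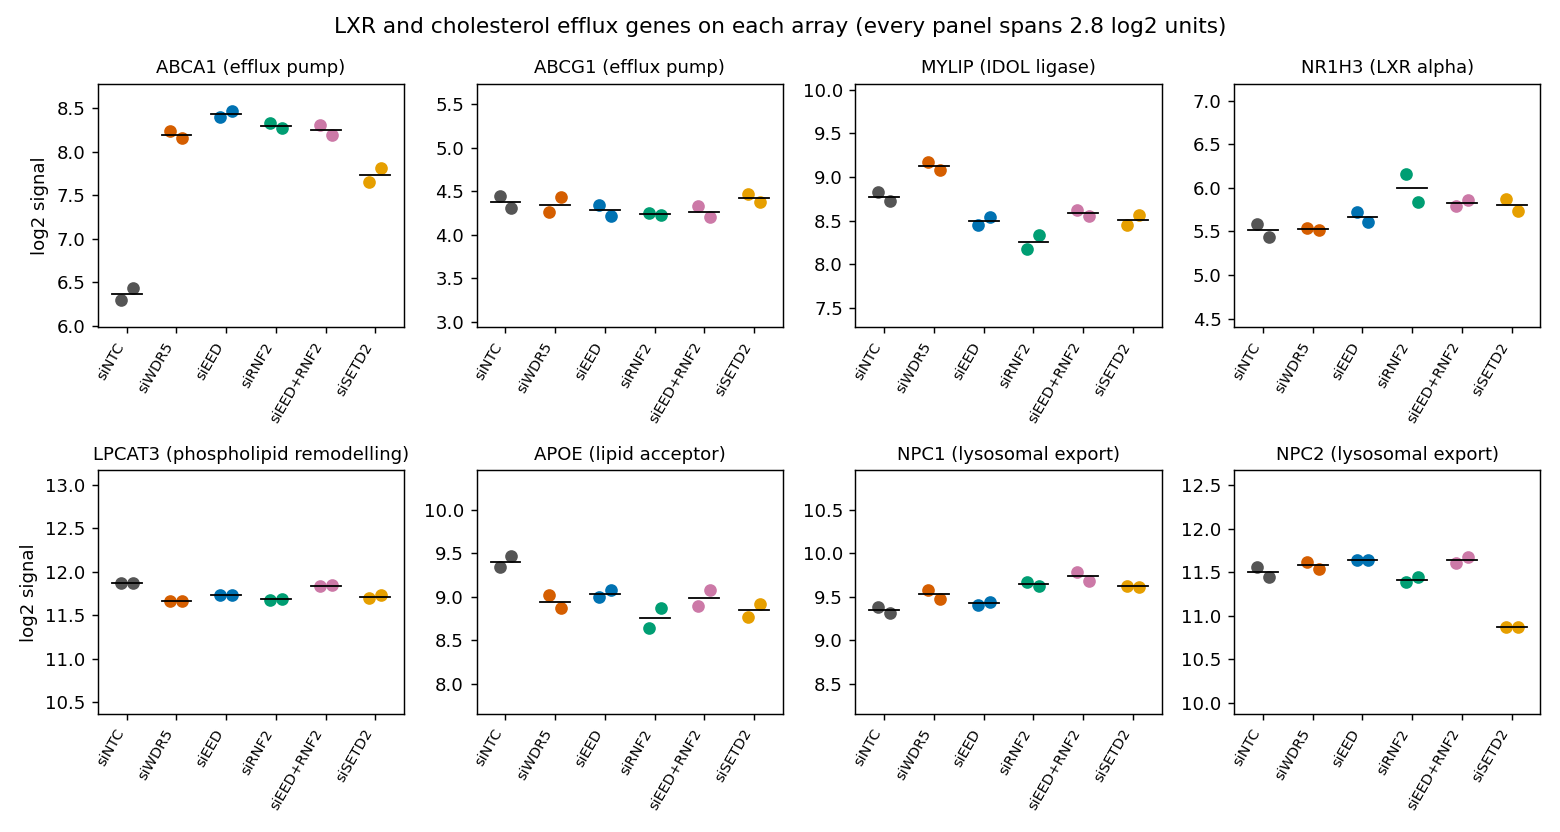
Log2 signal of 8 LXR and cholesterol efflux genes on the 12 arrays, by siRNA condition. Each point is an array, each black line the mean of 2 arrays, and every panel spans 2.8 log2 units. ABCA1 is at 6.29 and 6.43 in siNTC and at 7.66 or higher in all knockdown arrays, while NPC2 is lowest in siSETD2 at 10.87.

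Differences among the Polycomb and SETD2 knockdowns use neither the siNTC nor the siWDR5 arrays and are therefore free of the arrays that chose ABCA1. The spread behind their intervals and p-values was estimated from all 12 arrays. ABCA1 was 1.62-fold lower in siSETD2 than in siEED (log2 fold change -0.70, 95% interval -0.87 to -0.53, limma adjusted p = 3.9e-05). It was lower than in siRNF2 by 1.48-fold (log2 fold change -0.56, limma adjusted p = 1.4e-04) and lower than in siEED+RNF2 by 1.43-fold (-0.51, limma adjusted p = 2.4e-04), and these differences stayed under the 1.5-fold limit. Without siRNF2 replicate 2 or without siSETD2 replicate 2 the difference from siRNF2 passed that limit, and without siSETD2 replicate 2 so did the difference from siEED+RNF2. The mean of the pluripotency markers moved along with this contrast: over 5 measured genes it was 12.15 on each siSETD2 array, 11.65 to 11.74 on the Polycomb knockdown arrays and 11.97 and 11.98 in siNTC. Not every marker did so: SOX2 was at -0.11 against siNTC in siSETD2 and at -0.25 to -0.08 in the Polycomb knockdowns. The part of these markers in the ABCA1 result was not tested.

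Among the Polycomb knockdowns ABCA1 differed little. siRNF2 was below siEED by a log2 fold change of -0.14 (95% interval -0.31 to 0.03, limma adjusted p = 0.33). siEED+RNF2 was below siEED by -0.18 (interval -0.36 to -0.01, limma adjusted p = 0.15) and differed from siRNF2 by -0.05 (interval -0.22 to 0.12, limma adjusted p = 0.75). In descending order the conditions were siEED, siRNF2, siEED+RNF2, siWDR5, siSETD2 and siNTC. The arrays of siRNF2 and siEED+RNF2 overlapped, as did those of siEED+RNF2 and siWDR5. The mean of siWDR5 was below siEED by 0.24 and above siSETD2 by 0.46 on the log2 scale, values given without a test.

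ABCA1 in the dual knockdown fell short of the sum of the single knockdowns. The interaction, which sets the dual change against the sum of the changes in siEED and siRNF2, was -2.12 on the log2 scale (standard error 0.11, limma adjusted p = 2.7e-07). Its size is close to that of the rise in either single knockdown. The siNTC arrays that chose ABCA1 enter this value too, so it is no independent test. Of all genes, 7.43% had an interaction called lower and 3.89% one called higher, and of the 8 genes 1 was called lower (ABCA1) and 2 higher (MYLIP and APOE).

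No gene of the set besides ABCA1 was called higher against siNTC in siEED, siEED+RNF2, siRNF2 or siSETD2. The share of all genes called higher was 3.74% in siEED, 5.49% in siEED+RNF2, 6.37% in siRNF2 and 2.64% in siSETD2. Called lower were APOE in siRNF2 (background 3.81%) and NPC2 in siSETD2 (background 3.18%). With limma no gene of the 8 was called lower in siEED (background 2.63%) or siEED+RNF2 (6.02%), where 3 and 2 of the 8 were lower at an unadjusted p under 0.05. In siWDR5, given as a description by fold alone, ABCA1 was above 1.5-fold as the rule fixed (2.8% of all genes were) and none of the 8 was below it (3.24% of all genes were). The median log2 fold change of the 8 genes was 0.04 in siWDR5, -0.01 in siEED, 0.05 in siEED+RNF2, -0.12 in siRNF2 and -0.06 in siSETD2. The medians of all genes lay between -0.04 and -0.01.

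**Figure D2:**
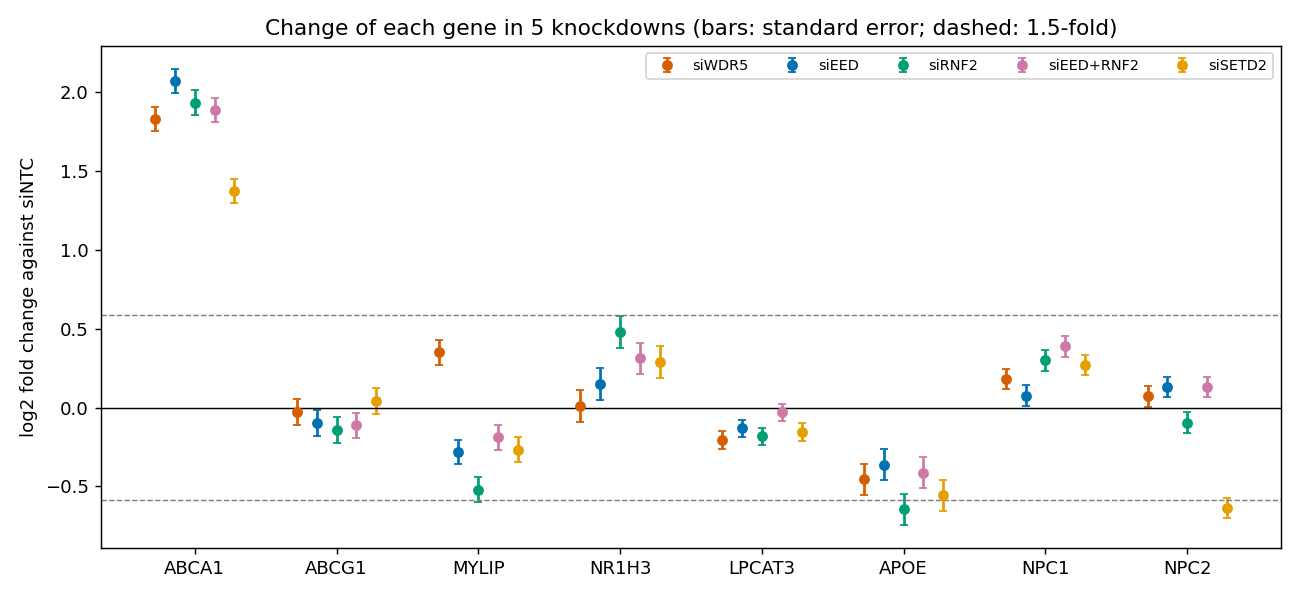
Log2 fold change against siNTC of 8 genes in 5 knockdowns, with bars for the standard error and dashed lines at a 1.5-fold change. ABCA1 lies between 1.38 and 2.07, whereas the other 7 genes lie between -0.65 and 0.48.

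ABCG1, the pump that passes cholesterol to mature high-density lipoprotein, was dim throughout. Its arrays ran from 4.20 to 4.47, and the arrays of neighbouring conditions overlapped. Its mean stood at percentile 7.50 of all genes, and no detection call came with the values, so a low level cannot be told apart from no expression. Its log2 fold changes ran from -0.14 in siRNF2 (95% interval -0.32 to 0.04, limma adjusted p = 0.19) to 0.04 in siSETD2.

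NR1H3 encodes LXR alpha. Its log2 signal was 5.59 and 5.44 in siNTC, 5.54 and 5.52 in siWDR5, 5.72 and 5.61 in siEED, 6.16 and 5.83 in siRNF2, 5.79 and 5.86 in siEED+RNF2, and 5.88 and 5.74 in siSETD2. All siEED, siRNF2, siEED+RNF2 and siSETD2 arrays lay above those of siNTC, and the siWDR5 arrays lay among them. The log2 fold change was 0.48 in siRNF2 (standard error 0.10, limma adjusted p = 0.0023), 0.31 in siEED+RNF2 (limma adjusted p = 0.026) and 0.29 in siSETD2 (limma adjusted p = 0.045), under the fold limit in each. The siRNF2 value was 0.32 without siRNF2 replicate 1 and 0.64 without siRNF2 replicate 2, and the second was called higher. In siWDR5 it was 0.01 and in siEED 0.15 (95% interval -0.07 to 0.37, limma adjusted p = 0.27).

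MYLIP was highest in siWDR5. Its log2 signal was 8.83 and 8.72 in siNTC, 9.17 and 9.08 in siWDR5, 8.45 and 8.54 in siEED, 8.17 and 8.33 in siRNF2, 8.63 and 8.55 in siEED+RNF2, and 8.45 and 8.57 in siSETD2. The siWDR5 arrays lay above all others and the arrays of the other 4 knockdowns lay below siNTC. The log2 fold change was 0.35 in siWDR5, without a test, and -0.28 in siEED (limma adjusted p = 0.016), -0.19 in siEED+RNF2 (0.076), -0.52 in siRNF2 (2.3e-04) and -0.27 in siSETD2 (0.022). None reached the fold limit, except in siRNF2 without siRNF2 replicate 2 (-0.60). Between siWDR5 and the other knockdowns the means differed by 0.54 to 0.87 on the log2 scale, with no overlap of arrays. The dual knockdown was above siRNF2 by 0.33 (95% interval 0.16 to 0.51, limma adjusted p = 0.011), again below the fold limit.

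APOE encodes the apolipoprotein that carries lipid away from cells. It was 9.34 and 9.46 in siNTC, 9.01 and 8.87 in siWDR5, 8.99 and 9.08 in siEED, 8.64 and 8.87 in siRNF2, 8.89 and 9.08 in siEED+RNF2, and 8.77 and 8.92 in siSETD2. Every knockdown array lay below both siNTC arrays, opposite in direction to ABCA1. APOE fell in siRNF2, where it was 1.56-fold lower (log2 fold change -0.65, standard error 0.10, limma adjusted p = 2.5e-04). Without siRNF2 replicate 1 (-0.53) or without siNTC replicate 2 (-0.58) it no longer reached the fold limit. It was -0.46 in siWDR5 without a test, -0.36 in siEED (limma adjusted p = 0.013), -0.41 in siEED+RNF2 (0.0049) and -0.56 in siSETD2 (0.0011), none of which reached that limit. Without siSETD2 replicate 2 (-0.63) or without siNTC replicate 1 (-0.62) APOE was called lower in siSETD2.

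LPCAT3 was bright and nearly even. It was 11.87 on both siNTC arrays, 11.66 on both siWDR5 arrays, 11.74 on both siEED arrays, 11.68 and 11.69 in siRNF2, 11.84 on both siEED+RNF2 arrays, and 11.70 and 11.73 in siSETD2. All knockdown arrays lay below siNTC, by log2 fold changes of -0.21 in siWDR5 to -0.03 in siEED+RNF2. In siRNF2 the difference was -0.18 (95% interval -0.30 to -0.06, limma adjusted p = 0.018).

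The lysosomal pair split in siSETD2. NPC2, the soluble carrier in the lysosome, was 11.57 and 11.45 in siNTC and 10.87 on both siSETD2 arrays, and the other knockdown arrays ran from 11.39 to 11.67. NPC2 fell in siSETD2 by a log2 fold change of -0.64 (standard error 0.06, limma adjusted p = 2.2e-05), or 1.55-fold. Without siNTC replicate 1 the value was -0.58 and did not reach the fold limit. Against the Polycomb knockdowns the differences are free of siNTC. NPC2 was lower in siSETD2 by -0.77 relative to siEED (95% interval -0.91 to -0.63, limma adjusted p = 4.6e-06). It was also lower by -0.77 relative to siEED+RNF2 (limma adjusted p = 2.4e-06). Relative to siRNF2 it was -0.54 (limma adjusted p = 4.7e-05), under the fold limit. NPC1, the membrane protein that takes cholesterol over from NPC2, was 9.38 and 9.31 in siNTC, 9.58 and 9.48 in siWDR5, 9.41 and 9.44 in siEED, 9.67 and 9.62 in siRNF2, 9.79 and 9.68 in siEED+RNF2, and 9.63 and 9.61 in siSETD2. All its knockdown arrays lay above siNTC, with log2 fold changes of 0.39 in siEED+RNF2 (limma adjusted p = 4.9e-04), 0.30 in siRNF2 (0.003) and 0.27 in siSETD2 (0.008), none reaching the fold limit. In siSETD2 NPC2 therefore fell while NPC1 stayed 0.27 above siNTC.

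Among differences free of siNTC and siWDR5, 2 of 8 genes were called lower in siSETD2 than in siEED (ABCA1 and NPC2, background 3.85%). Against siEED+RNF2 1 was called lower in siSETD2 (NPC2, background 4.89%). None of the 8 was called by limma in siSETD2 against siRNF2, where 8.67% of all genes were called in either direction and 4 of the 8 had an unadjusted p under 0.05. None was called between siRNF2 and siEED (background 1.26%), siEED+RNF2 and siEED (2.91%) or siEED+RNF2 and siRNF2 (3.27%). At an unadjusted p under 0.05 these 3 comparisons gave 5, 2 and 4 of the 8 genes. With no fold limit, 1968, 2530 and 3198 of all 18417 genes passed an adjusted p under 0.05 in them. The share of all genes at the unadjusted limit is not given, so the unadjusted counts are not read as an excess.

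The wider sterol network was examined through 8 lists that name 102 genes, of which 85 were measured and which leave out the 9 genes above. Of these 85, 4 were called higher and 3 lower in siWDR5, 7 and 2 in siEED, 7 and 4 in siRNF2, 5 and 3 in siEED+RNF2, and 1 and 4 in siSETD2. As shares, 4.71%, 8.24%, 8.24%, 5.88% and 1.18% were higher, against the backgrounds of 2.8%, 3.74%, 6.37%, 5.49% and 2.64%. Lower were 3.53%, 2.35%, 4.71%, 3.53% and 4.71%, against backgrounds of 3.22%, 2.63%, 3.81%, 6.02% and 3.18%. The median log2 fold change of the 85 genes was between -0.04 and 0.00 in all 5 knockdowns. Such medians can hold rises and falls that cancel. Of the 22 genes of lysosomal and intracellular sterol transport, 8 were higher and 8 lower in siRNF2 at an unadjusted p under 0.05. With no fold limit, 7927 of all 18417 genes passed an adjusted p under 0.05 in siRNF2. The counts of 8 and 8 are therefore not read as particular to that list. The genes that were called are named below.

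**Figure D3:**
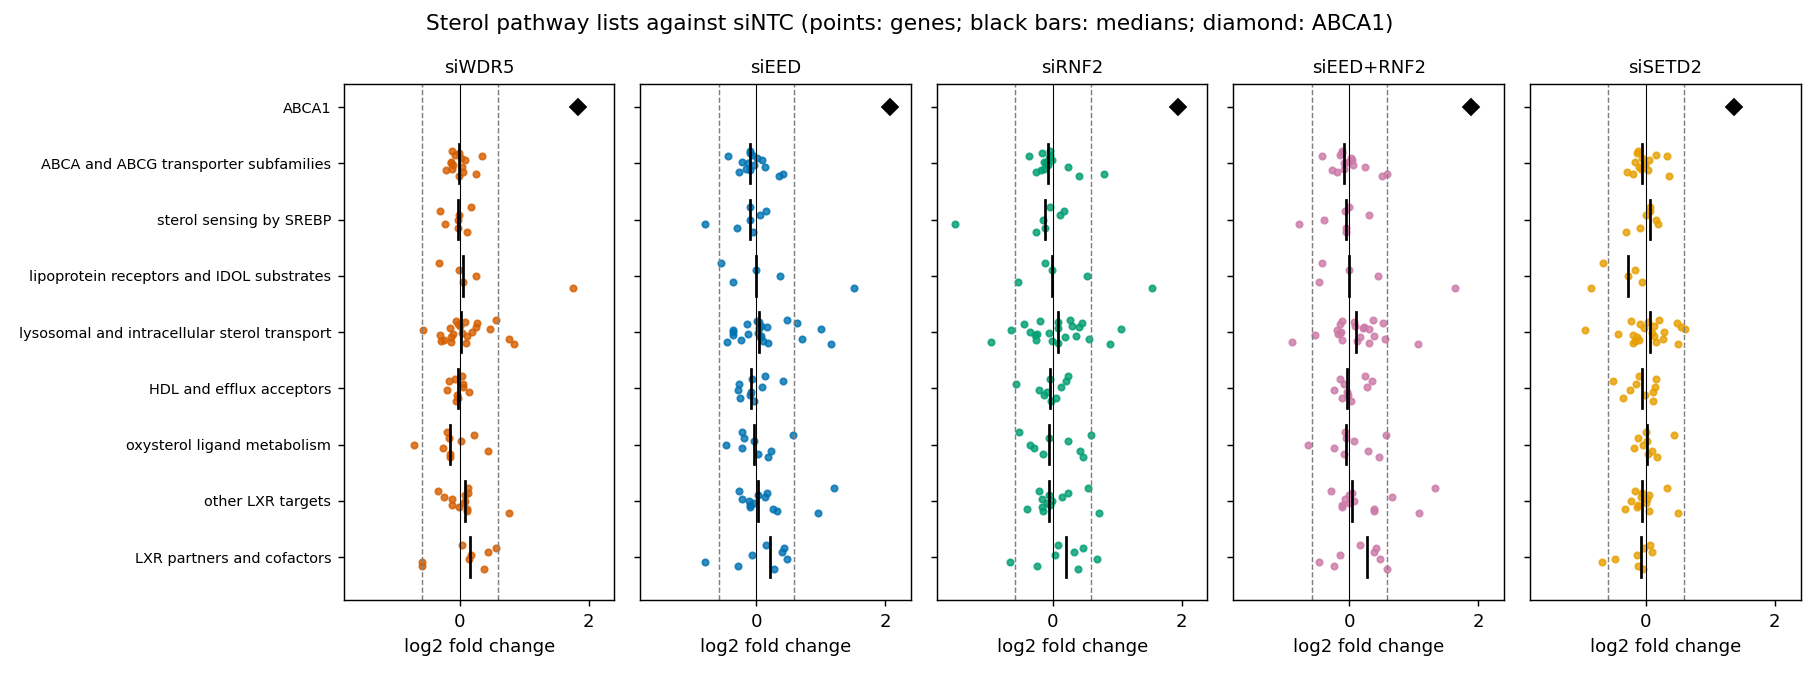
Log2 fold change against siNTC of the genes of 8 sterol pathway lists in 5 knockdowns. Points are genes, black bars list medians, dashed lines a 1.5-fold change, and the diamond is ABCA1. ABCA1 lies to the right of every listed gene in all 5 panels, with VLDLR next in siWDR5 at 1.76.

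Among 13 measured LXR targets outside the set, 1 was called higher in siWDR5, 2 in siEED, 3 in siEED+RNF2, 1 in siRNF2 and 0 in siSETD2, and none was called lower. In that order 2.8%, 3.74%, 5.49%, 6.37% and 2.64% of all genes were higher and 3.22%, 2.63%, 6.02%, 3.81% and 3.18% lower. In siSETD2, 2 were higher and 2 lower when the unadjusted p alone was held under 0.05. SREBF1, which encodes the lipogenic transcription factor SREBP-1, was 7.14 and 7.16 in siNTC, 7.99 and 7.85 in siWDR5, 8.12 and 8.10 in siEED, 7.87 on both siRNF2 arrays, 8.18 and 8.28 in siEED+RNF2, and 7.67 and 7.62 in siSETD2. All knockdown arrays were above siNTC, with siSETD2 lowest among them, as for ABCA1. Its log2 fold change was 0.77 in siWDR5 (limma adjusted p = 7.5e-06), 0.96 in siEED, 1.08 in siEED+RNF2 (1.7e-07), 0.72 in siRNF2 and 0.49 in siSETD2, the last under the fold limit.

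PNPLA3, a lipid droplet protein also induced by SREBP-1, rose by 1.21 in siEED (limma adjusted p = 1.2e-06) and by 1.32 in siEED+RNF2 (2.5e-07). It was 0.54 in siRNF2 and 0.13 in siWDR5. It was lower in siRNF2 than in siEED by a log2 fold change of -0.67 (limma adjusted p = 5.7e-04), whereas ABCA1 was not called between these conditions. APOC1, a small apolipoprotein encoded next to APOE, rose in siEED+RNF2 (log2 fold change 0.66, limma adjusted p = 1.3e-05), where APOE was at -0.41, and lay between -0.25 and 0.14 in the other 4 knockdowns.

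Of 8 measured LXR partners and cofactors, 2 were called lower in siWDR5, 1 in siEED, 0 in siEED+RNF2, 1 in siRNF2 and 1 in siSETD2. In siRNF2 1 was called higher, and 0 in the other knockdowns. Of all genes, 2.63% to 6.02% were called lower and 2.64% to 6.37% higher in a knockdown. RXRG, the gamma retinoid X receptor, fell in 4 knockdowns. Its log2 signal was 5.78 and 5.70 in siNTC and 4.91 to 5.32 on all knockdown arrays, all below the array medians. The log2 fold change was -0.59 in siWDR5 (limma adjusted p = 1.3e-04), -0.80 in siEED, -0.67 in siRNF2 and -0.68 in siSETD2, and -0.47 in siEED+RNF2, below the fold limit. RXRB fell in siWDR5 (-0.59, limma adjusted p = 5.5e-04). Only the brightest of its 3 clusters is given here, so that value is uncertain. The coactivator NCOA1 rose in siRNF2 (0.69, limma adjusted p = 1.8e-05) and lay at -0.48 in siSETD2.

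Of 22 measured genes of lysosomal and intracellular sterol transport, 2 were called higher in siWDR5, 4 in siEED, 1 in siEED+RNF2, 2 in siRNF2 and 1 in siSETD2, while in the same order 0, 0, 1, 2 and 1 were called lower. Of all genes, 2.8%, 3.74%, 5.49%, 6.37% and 2.64% were higher and 3.22%, 2.63%, 6.02%, 3.81% and 3.18% were lower in that order. LIPA, the lysosomal acid lipase that frees cholesterol from its esters, was 9.26 and 9.25 in siNTC and rose by 0.84 in siWDR5 (limma adjusted p = 6.1e-06), 1.17 in siEED (3.6e-07), 1.06 in siEED+RNF2 and 0.88 in siRNF2, with 0.51 in siSETD2. Its knockdown arrays ran from 9.67 to 10.43, all above siNTC. LIPA was lower in siSETD2 than in siEED by -0.66 (limma adjusted p = 2.5e-05), as ABCA1 was.

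GRAMD1C, a carrier of plasma membrane cholesterol to the endoplasmic reticulum, rose in siEED (1.01, limma adjusted p = 2.7e-04), siRNF2 (1.05) and siSETD2 (0.61, 0.0072). Its siNTC arrays, at 6.56 and 5.97, lay far apart. In siEED+RNF2 GRAMD1C was at 0.30 (limma adjusted p = 0.12). It was called lower there than in siEED (-0.70, limma adjusted p = 0.0075) and siRNF2 (-0.75, 0.0038). Its relative GRAMD1B fell in siRNF2 (-0.65, limma adjusted p = 2.7e-04) and siSETD2 (-0.94, 3.0e-05). In siWDR5 GRAMD1B lay just under the fold limit (-0.57, limma adjusted p = 9.0e-04). STARD4, a soluble sterol carrier and SREBP-2 target, fell in siRNF2 (-0.97, limma adjusted p = 3.3e-07) and siEED+RNF2 (-0.89) and was 0.16 in siSETD2. The oxysterol-binding OSBPL1A (0.76 in siWDR5 and 0.71 in siEED) and the cholesterol esterifying enzyme SOAT1 (0.63 in siEED) complete the genes called higher, and were named after their values were seen.

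Of 5 measured lipoprotein receptors and IDOL substrates, 1 was called higher in each knockdown but siSETD2, where 2 were called lower. Of all genes, 2.8% to 6.37% were called higher in those knockdowns and 3.18% lower in siSETD2. VLDLR, the very low density lipoprotein receptor and a substrate of IDOL, parted siSETD2 from the rest. It was 6.34 and 6.35 in siNTC, 8.18 and 8.03 in siWDR5, 7.86 on both siEED arrays, 8.01 and 7.77 in siRNF2, 8.04 and 7.92 in siEED+RNF2, and 5.48 and 5.51 in siSETD2. It rose by 1.76, 1.51, 1.54 and 1.63 in the first 4 knockdowns (limma adjusted p between 5.1e-08 and 2.0e-07) and fell in siSETD2 by a log2 fold change of -0.85 (limma adjusted p = 1.7e-05). The difference between siSETD2 and siEED was -2.36 (95% interval -2.54 to -2.18, limma adjusted p = 5.0e-09). ABCA1, in contrast, was above siNTC in siSETD2. SORL1, another receptor of this family, fell in siSETD2 (-0.66, limma adjusted p = 2.4e-05).

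INSIG1, which retains the SREBP precursor in the endoplasmic reticulum and is itself an SREBP target, fell in the Polycomb knockdowns. Its log2 signal was 8.78 and 8.62 in siNTC. It was 7.15 and 7.22 in siRNF2, 7.92 and 7.89 in siEED, and 7.96 and 7.88 with both pools, against 8.51 and 8.42 in siWDR5 and 8.96 and 8.83 in siSETD2. The log2 fold change was -0.80 in siEED (limma adjusted p = 1.4e-05), -1.52 in siRNF2 (6.0e-08) and -0.78 in siEED+RNF2. It was lower in siRNF2 than in siEED by -0.72 (limma adjusted p = 2.2e-04). No other of the 7 measured genes of sterol sensing was called in any knockdown against siNTC. The share of all genes called there was 2.64% to 6.37% higher and 2.63% to 6.02% lower.

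Of 9 measured enzymes that make or clear oxysterol ligands, 1 was called higher in siRNF2 (background 6.37%). Called lower were 1 in siWDR5 (background 3.22%) and 1 in siEED+RNF2 (6.02%), and no others were called. CYP7B1, which hydroxylates oxysterols, fell in siWDR5 (-0.72, limma adjusted p = 5.2e-05) and siEED+RNF2 (-0.63, 6.1e-05). SULT2B1, a sterol sulfotransferase, rose in siRNF2 (0.60, limma adjusted p = 0.015), with siNTC arrays of 5.40 and 4.96 that lay apart. SULT2B1 lay just under the fold limit in siEED (0.57, limma adjusted p = 0.024) and siEED+RNF2 (0.57, 0.019). Between siRNF2 and siEED it differed by 0.03 (limma adjusted p = 0.95). None of 10 measured genes of high-density lipoprotein and efflux acceptors was called in any of the 5 knockdowns by limma. Of all genes, 2.64% to 6.37% were called higher and 2.63% to 6.02% lower in a knockdown. At an unadjusted p under 0.05, 0, 1, 2, 3 and 0 of these 10 were higher in siWDR5, siEED, siRNF2, siEED+RNF2 and siSETD2, and 1, 1, 1, 0 and 2 were lower. Of 15 measured relatives of ABCA1 in the ABCA and ABCG subfamilies, 1 was called in any of the 5 knockdowns. This was ABCA3, a lipid transporter of lung surfactant, higher in siRNF2 (0.79, limma adjusted p = 6.6e-06). ABCA3 lay just under the fold limit in siEED+RNF2 (0.58, limma adjusted p = 5.7e-05) and at 0.42 in siEED. In siRNF2 6.37% of all genes were called higher.

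The genes whose pattern was most like that of ABCA1 were taken from the 1330 genes whose condition means spanned at least 1 on the log2 scale. They were FAM221A (Pearson r 0.987 over the 6 condition means), TP53INP1 (0.983), a p53-induced autophagy factor, REEP6 (0.976), an endoplasmic reticulum shaping protein, the pseudogene PRORSD1P (0.971) and COX6C (0.970), a subunit of cytochrome c oxidase. These correlations share the siNTC arrays and rest on 6 points of which siNTC stands apart. Over the 5 knockdown means alone r was 0.844 for FAM221A, 0.954 for TP53INP1, 0.725 for REEP6, 0.927 for PRORSD1P and 0.638 for COX6C, so the order changed. Over all 6 means 45 of the 1330 genes (3.38%) exceeded 0.9. The log2 fold change was 0.65 in siSETD2 and 1.27 in siEED for TP53INP1, and 0.83 and 1.12 for FAM221A, against 1.38 and 2.07 for ABCA1. PRORSD1P may share signal with its related gene copies.

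**Figure D4:**
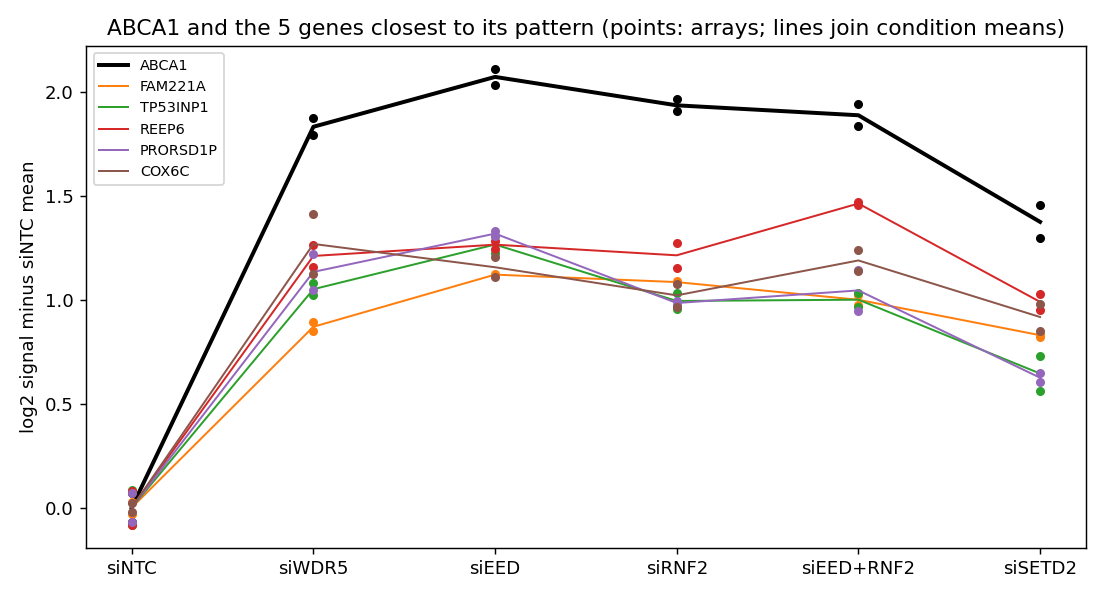
Log2 signal minus the siNTC mean for ABCA1 and the 5 genes closest to its pattern, by siRNA condition. Points are arrays and lines join condition means, with no order in time. ABCA1 reaches 2.07 in siEED and 1.38 in siSETD2, and its mean is above those of the other 5 genes in every knockdown.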

How the data were processed

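Expression was measured on 12 arrays of NCCIT cells, 2 per siRNA condition, grouped by the submitters' labels. The authors deposited log2 values for 33297 transcript clusters, made with GCRMA and Partek according to the submitters' processing notes, with versions and settings not given in the sources used here. Background correction and normalization between arrays were thus done before deposit and set the overall level of each array. Columns not used: 0. No detection calls or depth come with the values, and the number of arrays limits the precision.

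Clusters with 1 gene in the platform annotation were used (19460, of which 19429 matched RefSeq of GRCh38.p14 by gene number). The brightest cluster stood for its gene, giving 18417 genes. No gene coordinates of the array are printed. With limma 3.58.1 (R 4.3.3), a single model with 1 mean for each condition covered all arrays (6 residual degrees of freedom, empirical Bayes). A call needed a Benjamini-Hochberg adjusted p under 0.05 over all genes and a fold of at least 1.5. Counts at an unadjusted p under 0.05 come without a share of all genes and are not read as an excess. The fit was tested on simulated data. Promoters came from RefSeq and figures from matplotlib 3.10.9 in Python 3.11.15.

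The members and lists were chosen with earlier results of these data known. Named genes were the 9 members, up to 4 called genes per list with the largest change, and the 5 genes most correlated with ABCA1. Marker lists covered pluripotent, macrophage and blood, and hepatocyte genes. The closing section gives the alternatives tried. Replicate numbers were checked for pairing: of 15 pairs of conditions, 1 had a correlation of same-numbered deviations over 0.1 (range -0.107 to 0.161), so they were not taken as pairs.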

Additional observations from a re-analysis of the deposited data

Results flagged for a closer look

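The interaction of siEED and siRNF2, which tests whether the dual knockdown departs from the sum of the single ones, was called for 3 of the 8 genes, and each is given as a value. ABCA1 had an interaction of -2.12 on the log2 scale, called in all 25 alternatives. The siNTC arrays that chose ABCA1 enter this value in each alternative, so it is no independent test. The 5 genes closest to the pattern of ABCA1 had interactions of -1.26 to -0.99, all called lower. MYLIP had an interaction of 0.62 (adjusted p = 0.0014 from limma), called in 19 of 25 alternatives. It missed the fold limit without siEED replicate 1 (0.57), siRNF2 replicate 1 (0.53), siEED+RNF2 replicate 1 (0.58) or siNTC replicate 1 (0.56). APOE had an interaction of 0.60 (adjusted p = 0.0069 from limma), also called in 19 of 25. It was not called without siEED replicate 1 (0.55), siRNF2 replicate 1 (0.48), siEED+RNF2 replicate 2 (0.50) or siNTC replicate 2 (0.53). No gene was tested for outlying arrays, because each condition has 2 arrays.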

How the results depend on the processing

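ABCA1 was called higher in siEED, siRNF2, siEED+RNF2 and siSETD2 under each of the 25 alternatives that kept siNTC as the reference, with log2 fold changes of 1.99 to 2.14 in siEED, 1.81 to 2.01 in siRNF2, 1.81 to 1.96 in siEED+RNF2 and 1.30 to 1.45 in siSETD2. In siWDR5, where it was chosen and not tested, its value ran from 1.76 to 1.90 and no setting of the test or the p was tried. No called value of the 8 genes changed sign under these alternatives. Without a fold threshold, 3 of the 8 genes were called in siEED, 4 in siEED+RNF2, 6 in siRNF2 and 6 in siSETD2. Of all 18417 genes, 6520, 7755, 7927 and 5829 were called on that rule, in the same order. Between knockdowns, the genes of the 8 called were then 1 in siRNF2 against siEED and 1 in siEED+RNF2 against siEED. They were 2 in siEED+RNF2 against siRNF2, 3 in siSETD2 against siRNF2 and 2 in siSETD2 against siEED+RNF2. Among the Polycomb knockdowns, in that order, 1968, 2530 and 3198 of all genes were called. At a fold of at least 2 the genes of the 8 called were 1 in siRNF2, 1 in siSETD2, 0 in siSETD2 against siEED, 0 in siSETD2 against siEED+RNF2 and 1 for the interaction. Another setting took as reference, in place of siNTC, the mean of the knockdowns that share no pool with the condition compared. The genes called were then 0 in siEED, 0 in siEED+RNF2, 0 in siRNF2 and 1 in siSETD2 (NPC2, lower). In siWDR5 the gene past 1.5-fold, with no test, was then MYLIP and not ABCA1. Quantile normalization, and centring on the median of all clusters, each gave 1 gene in siSETD2 against siRNF2, and that centring gave 1 for the interaction. Leaving out single arrays gave 1 to 4 genes in siRNF2 (4 without siRNF2 replicate 2), 0 to 1 in siSETD2 against siRNF2, 1 to 2 in siSETD2 against siEED+RNF2 and 1 to 3 for the interaction. Centring on the median over genes turned the genes of the whole array called higher and lower from 688 and 485 to 502 and 730 in siEED, from 1174 and 701 to 775 and 1253 in siRNF2, from 1011 and 1109 to 770 and 1414 in siEED+RNF2, and from 717 and 1369 to 1381 and 876 for the interaction. For siSETD2 against each Polycomb knockdown it turned them from 448 and 709 to 664 and 542 (siEED), from 585 and 1012 to 1062 and 685 (siRNF2) and from 1020 and 900 to 1274 and 689 (siEED+RNF2), and in siRNF2 against siEED from 146 and 86 to 103 and 113. Of the 8 genes, 3 in place of 2 were called in siRNF2 under this centring, and the number was the same in the other comparisons. With the replicate number as a block, 1, 2, 1 and 2 of the 8 genes were called in siEED, siRNF2, siEED+RNF2 and siSETD2, and the block changed no call of these genes. Of the alternatives, those that moved a count did so by their own construction (another limit, reference or set of arrays), and for the scalings the cause was not tested.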
